A study of Oryza sativa with 4 samples.

Results

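The *KNOX* and *WOX* homeobox genes of the meristem were followed here in panicles of the rice mutant *phoenix* (*pho*) and of WT. The set held 7 genes, *OSH1*, *OSH6*, *OSH43*, *OSH71*, *WOX4*, *WOX11* and *QHB*, of 17905 genes to which the annotation gives at least 1 probe set that is theirs alone. They were taken by symbol or synonym, and each was represented by its probe set with the highest mean signal.

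A meristem is a group of dividing cells that stays undifferentiated and supplies cells to new organs. KNOX proteins of class I keep shoot meristem cells in this state, in part by raising cytokinin and lowering gibberellin, and their genes are shut off where a leaf is to form. WOX proteins, the family of WUSCHEL, hold stem cells in the shoot, the root and the vascular tissue. In rice, OSH1 is needed to maintain the shoot meristem, WOX4 acts in the shoot meristem and the young leaf, WOX11 promotes the emergence of crown roots from the stem, and *QHB* marks the quiescent centre of the root tip.

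The study hybridized total RNA of whole panicles to the Affymetrix GeneChip Rice Genome Array. There were 2 arrays of *pho*, from panicles of 9–12 cm and of 5–8 cm, and 2 arrays of WT, from panicles of the same lengths, so that each genotype had 1 array per length. The mutant *pho* arose spontaneously among the offspring of the *indica* cultivar Zhongxian 3037 and carried both a mutation of *OsMADS15* and a silenced *OsMADS1*. The study does not state whether WT was this cultivar or normal plants among the same offspring. All plants stood in paddy fields. As a material *pho* was limited in that its panicles bore plantlets in place of flowers, so that the organs compared were not the same. The methods of the study name panicles of 5–8 cm only, and a line in the description of the 9–12 cm WT sample names *pho*, although its title, source and genotype give WT, as which it was used. Whether separate plants gave the samples is stated nowhere, so each p measures only the spread between these arrays, which may be technical and which includes the panicle length.

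Values are MAS5 signals, brightness summaries of 1 probe set on 1 array, which the authors had scaled to the same overall intensity on each array. Fold changes in log2 were taken from log2(signal + 16), which makes those of dim probe sets smaller. Probe sets whose mean signal reached 100, 23929 in number, were tested with limma, and p was adjusted over all of them by the Benjamini-Hochberg method. None passed an adjusted p of 0.05 between *pho* and WT (0.0%), and the lowest adjusted p from limma was 0.0773. With panicle length, which pairs the arrays, as a replicate block, 40 passed (0.167%, 8 higher and 32 lower in *pho*), and 51 passed after centring each array on its median (0.213%, 11 higher and 40 lower), none of them of a gene of the set. At an unadjusted p under 0.05, *pho* was higher for 826 of them and lower for 809. *OsMADS1* had signals of 109 and 4.6 in *pho* at 9–12 and 5–8 cm, against 10671 and 10166 in WT. *OsMADS15* had 16022 and 15892 in *pho*, against 15321 and 14444 in WT. The *pho* array of 9–12 cm stood apart, with correlations of 0.796 to 0.827 with the other 3 arrays, which correlated at 0.877 to 0.935 among each other. The ratio of 3′ to 5′ probe sets of actin, a sign of RNA integrity, was 5.26 and 3.28 in *pho* at 9–12 and 5–8 cm, against 4.95 and 10.6 in WT. For GAPDH this ratio was 11.0 and 6.87 in *pho*, against 9.62 and 16.4 in WT. Both ratios were thus highest in the 5–8 cm WT array, on which every comparison of *pho* with WT at that length rests.

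No *KNOX* or *WOX* gene of the set passed the test between *pho* and WT. *OSH43* had a lower signal and *WOX11* a higher signal in *pho* at both panicle lengths. *OSH1* and *OSH6* had lower signals in the longer panicles of both genotypes, and *OSH71* stayed within a narrow range. Of the 7 genes, 4 passed the filter on low signals, namely the 4 *KNOX* genes. *WOX4*, *WOX11* and *QHB* were below it and were not tested. Since whole panicles were measured, fewer cells of a type and less RNA per cell cannot be told apart in any of these values.

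**Figure D1:**
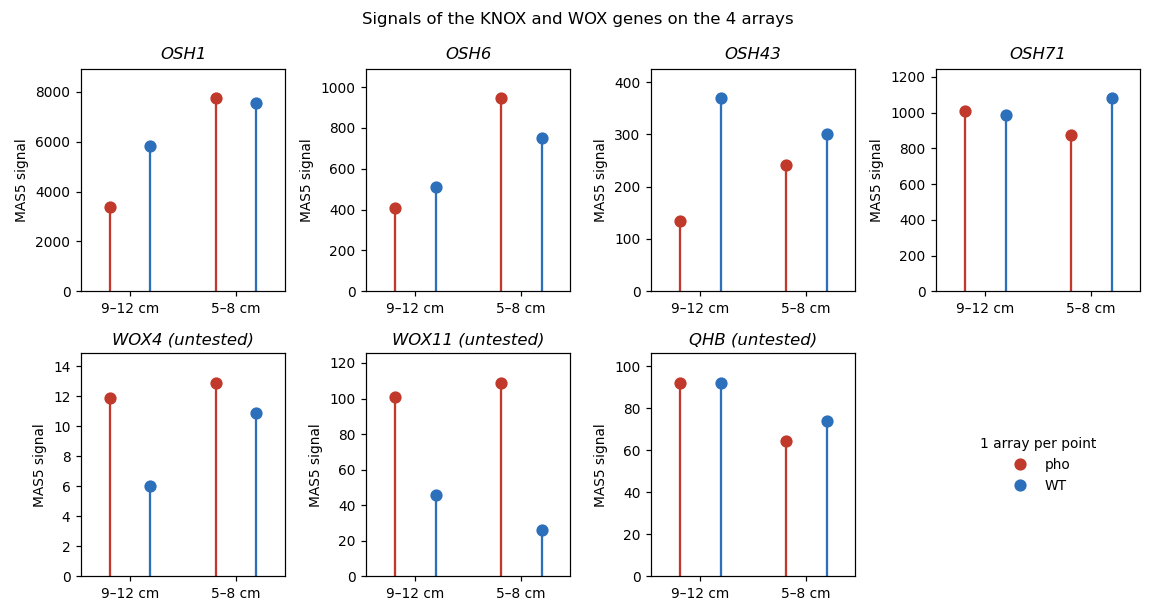
MAS5 signal (vertical axis, linear, from 0, with its own scale for each gene) of the 7 genes on each of the 4 arrays, with *pho* in red and WT in blue at panicle lengths of 9–12 and 5–8 cm. Each point is 1 array. *OSH43* was lower and *WOX11* higher in *pho* at both lengths, whereas the 5–8 cm arrays of *OSH1* lay close together at 7773 in *pho* and 7553 in WT.

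*OSH1*, the class I *KNOX* gene that maintains the shoot meristem (probe set Os.151.1.S1_x_at), had signals of 3378 in *pho* and 5843 in WT at 9–12 cm, and of 7773 in *pho* and 7553 in WT at 5–8 cm. The 2 genotypes overlapped, and 1 array, *pho* at 9–12 cm, was low against the other 3. The means were 5576 ± 3108 in *pho* and 6698 ± 1209 in WT (SD, n = 2 each). Set against WT, *pho* had a log2 ratio of -0.79 at 9–12 cm and of 0.04 at 5–8 cm. In limma the log2 fold change was -0.37 ± 0.45 (SE), with a 95% interval from -1.53 to 0.79 and an adjusted p of 0.860. Without the *pho* array of 9–12 cm the log2 fold change was 0.23 (limma, adjusted p = 0.827), so that the lower mean of *pho* came from this array. Of all tested probe sets, 15.9% had a log2 ratio at 9–12 cm as low as that of *OSH1* or lower.

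The suffix of this probe set marks probes that can also bind other transcripts. A second probe set of *OSH1* without that mark (Os.151.2.S1_at) had 918 in *pho* and 2171 in WT at 9–12 cm, and 2980.4 in *pho* and 2845.5 in WT at 5–8 cm. It gave the same order of the 4 arrays, with *pho* highest at 5–8 cm and lowest at 9–12 cm. Its log2 fold change was -0.58 ± 0.61 (SE, limma adjusted p = 0.842).

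*OSH6*, another class I *KNOX* gene of the shoot meristem (Os.4163.1.S1_at), had signals of 407 in *pho* and 511 in WT at 9–12 cm, and of 949 in *pho* and 749 in WT at 5–8 cm. Both *pho* arrays lay outside the range of WT, one below and one above it. The means were 678 ± 383 in *pho* and 630.05 ± 168 in WT (SD, n = 2 each). Set against WT, *pho* had a log2 ratio of -0.32 at 9–12 cm and of 0.33 at 5–8 cm. The limma log2 fold change was 0.01 ± 0.50 (SE), with a 95% interval from -1.29 to 1.30 and an adjusted p of 0.997. That interval spans more than a doubling in either direction.

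*OSH43*, a class I *KNOX* gene that induces ectopic shoots on leaves when overexpressed in rice (Os.57551.1.S1_s_at), had signals of 134 in *pho* and 370.4 in WT at 9–12 cm, and of 242 in *pho* and 302 in WT at 5–8 cm. It was the only tested gene of the set whose *pho* arrays were both below both WT arrays. Over all tested probe sets the same held for 21.1%. WT was 2.77-fold higher than *pho* at 9–12 cm and 1.25-fold higher at 5–8 cm. The means were 188 ± 76.6 in *pho* and 336 ± 48.6 in WT (SD, n = 2 each), and the limma log2 fold change was -0.83 ± 0.43 (SE), with a 95% interval from -1.95 to 0.28 and an adjusted p of 0.762. Of all tested probe sets, 5.48% had a log2 ratio at 9–12 cm as low as the -1.37 of *OSH43* or lower. Without the *pho* array of 9–12 cm the log2 fold change was -0.44 (limma, adjusted p = 0.772).

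The suffix of that probe set of *OSH43* marks probes that can also bind other transcripts. The second probe set of *OSH43* (Os.31463.1.S1_at), without that mark, was below the filter. It had 89.1 in *pho* and 103 in WT at 9–12 cm, and 65.0 in *pho* and 134 in WT at 5–8 cm. Again both *pho* arrays were below both WT arrays. The larger gap, however, lay at the other length, with a log2 ratio of *pho* over WT of -0.18 at 9–12 cm and -0.89 at 5–8 cm, against -1.37 and -0.30 for the first probe set. The probe sets thus had the same direction and differed in the length at which it was larger.

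*OSH71*, a class I *KNOX* gene also known as *Oskn2* (Os.4162.1.S1_at), had signals of 1007 in *pho* and 988 in WT at 9–12 cm, and of 875 in *pho* and 1084 in WT at 5–8 cm. The genotypes overlapped, and the 9–12 cm arrays differed by a log2 ratio of 0.03. The means were 941 ± 93.3 in *pho* and 1036 ± 68.0 in WT (SD, n = 2 each). The limma log2 fold change of -0.14 ± 0.29 (SE, adjusted p = 0.922) had a 95% interval from -0.87 to 0.60, the narrowest of the 4 tested genes.

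Of the 4 tested *KNOX* genes, 0 were higher in *pho* at both lengths, 1 was lower at both and 3 had opposite signs. Over all tested probe sets, 28.5% were higher at both, 32.5% lower at both and 39.0% opposite. The 4 genes had a median log2 ratio of -0.55 at 9–12 cm and -0.13 at 5–8 cm, beside -0.10 and 0.02 over all tested probe sets. The median log2 fold change was -0.26 for the 4 genes and -0.03 over all tested probe sets. These medians describe 4 genes of which *OSH1* rests on 1 array.

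**Figure D2:**
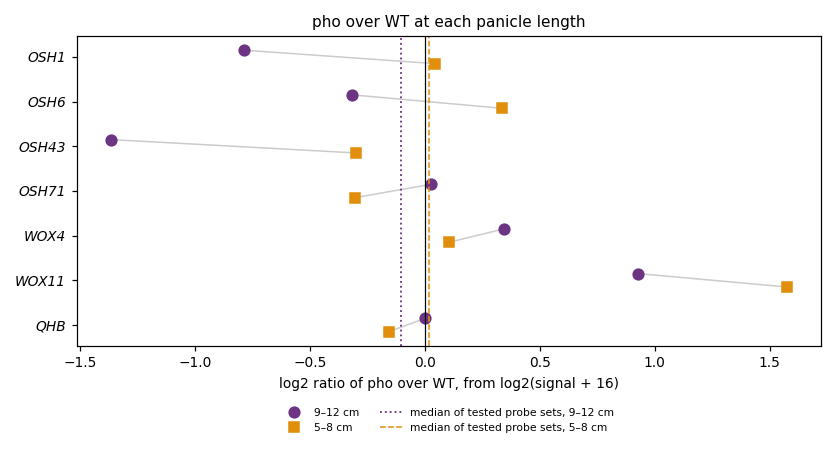
Log2 ratio of *pho* over WT (horizontal axis, from log2(signal + 16)) for each gene of the set, with circles for 9–12 cm and squares for 5–8 cm, each from 1 array per genotype. The dotted and dashed lines are the medians of all tested probe sets, at -0.10 and 0.02. *OSH43* lies left of 0 and *WOX11* right of 0 at both lengths, and for *OSH1*, *OSH6* and *OSH71* the points lie on either side of 0.

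Of the *WOX* genes, *WOX11*, the crown root gene (Os.51714.1.S1_at), had signals of 101 in *pho* and 45.5 in WT at 9–12 cm, and of 109 in *pho* and 25.9 in WT at 5–8 cm. Both *pho* arrays were above both WT arrays, and the *pho* arrays were close to each other. The means were 105 ± 5.66 in *pho* and 35.7 ± 13.9 in WT (SD, n = 2 each). As plain ratios of the signals, *pho* had 2.22 times the WT value at 9–12 cm and 4.21 times at 5–8 cm. The WT signals under it were low, and the log2 difference of the means was 1.58 with a pseudocount of 1 and 0.77 with 64, so the size of the difference is uncertain. The overall mean of 70.4 kept *WOX11* out of the test. When all probe sets were fitted without the filter, its log2 fold change was 1.25 (limma, adjusted p = 0.900). The median signals of the arrays were 68.1 and 50.5 in *pho* at 9–12 and 5–8 cm, against 60.5 and 49.0 in WT. *WOX11* was thus above the array median in *pho* and below it in WT. Detection calls were not used here.

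*WOX4*, which acts in the shoot meristem and leaf (Os.49747.1.S1_at), had signals of 11.9 in *pho* and 6.0 in WT at 9–12 cm, and of 12.9 in *pho* and 10.9 in WT at 5–8 cm. These were far below the array medians. Both *pho* arrays were above both WT arrays, by a log2 ratio of 0.34 at 9–12 cm and 0.10 at 5–8 cm. Over all untested probe sets, 17.9% had both *pho* arrays above both WT arrays, as *WOX4* and *WOX11* did. No direction is read from signals of *WOX4* this low.

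*QHB*, the quiescent centre gene (Os.32978.1.S1_at), had signals of 92.3 in *pho* and 92.2 in WT at 9–12 cm, and of 64.6 in *pho* and 73.9 in WT at 5–8 cm. The genotypes overlapped. Set against WT, *pho* had a log2 ratio of 0.00 at 9–12 cm and of -0.16 at 5–8 cm. Both genotypes had the higher signal in the longer panicles. The array medians were also higher there, at 68.1 against 50.5 in *pho* and 60.5 against 49.0 in WT.

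The arrays also compare panicles of 9–12 cm with those of 5–8 cm within each genotype. *OSH1* was 56.5% lower in the 9–12 cm than in the 5–8 cm panicles of *pho* and 22.6% lower in those of WT. *OSH6* was 57.1% lower in *pho* and 31.8% lower in WT. In a fit with genotype and panicle length, the log2 fold change of 9–12 over 5–8 cm was -0.78 ± 0.29 (SE) for *OSH1* (limma, adjusted p = 0.468) and -0.86 ± 0.33 (SE) for *OSH6* (limma, adjusted p = 0.469). Neither passed after adjustment, and 0 of the 23929 tested probe sets did (0.0%), with a lowest adjusted p from limma of 0.152. Both genes were among the 3.56% of tested probe sets that were lower at 9–12 cm at an unadjusted p under 0.05, which were 853 against 1672 that were higher. Lower signals at 9–12 cm in both genotypes were found for 35.0% of all tested probe sets. The second probe set of *OSH1* had a log2 fold change of -1.04 ± 0.38 (SE, limma adjusted p = 0.467) between the lengths.

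The other tested genes did not share this direction in both genotypes. *OSH43* had a log2 ratio of 9–12 over 5–8 cm of -0.79 in *pho* and 0.28 in WT. Its second probe set, below the filter, had the opposite signs, with 0.38 in *pho* and -0.33 in WT. For *OSH71* the log2 ratio was 0.20 in *pho* and -0.13 in WT. The medians over all tested probe sets were -0.13 in *pho* and -0.01 in WT. Among the untested genes, *WOX11* had log2 ratios of -0.10 in *pho* and 0.55 in WT, and *WOX4* of -0.05 and -0.29, between signals near the floor of the arrays. In *QHB* the log2 ratio was 0.43 in *pho* and 0.27 in WT.

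**Figure D3:**
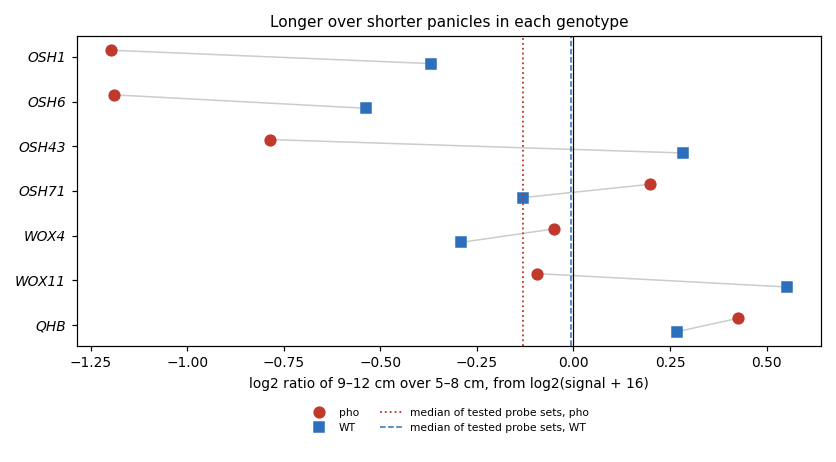
Log2 ratio of 9–12 cm over 5–8 cm panicles (horizontal axis, from log2(signal + 16)) for each gene of the set, with circles for *pho* and squares for WT, each from 1 array per length. The dotted and dashed lines are the medians of all tested probe sets, at -0.13 in *pho* and -0.01 in WT. *OSH1* and *OSH6* lie left of 0 in both genotypes, at -1.20 and -1.19 in *pho* and -0.37 and -0.54 in WT.

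Further *KNOX* genes were looked up by name. Of these, 4 could be measured and were tested, and 1 was higher in *pho* at both lengths while 3 had opposite signs. The shares over all tested probe sets were 28.5% and 39.0%. *OSH3*, a class I gene that the gene table places with 1 gene between it and *OSH1*, had 219.9 in *pho* and 356 in WT at 9–12 cm, and 404 in *pho* and 284.5 in WT at 5–8 cm. As for *OSH6*, the *pho* arrays were the lowest and the highest, and the limma log2 fold change was -0.09 (adjusted p = 0.970). The other 3 belong to class II, whose members are expressed also in differentiated tissue. *OSH45* had 1338 in *pho* and 346 in WT at 9–12 cm, and 502 in *pho* and 455 in WT at 5–8 cm. Both *pho* arrays were above both WT arrays, as for 17.9% of all tested probe sets, and the log2 fold change was 1.02 ± 0.54 (SE, limma adjusted p = 0.762). *HOS66* had 3551 in *pho* and 531 in WT at 9–12 cm, and 162 in *pho* and 168 in WT at 5–8 cm. Its log2 fold change of 1.33 ± 1.49 (SE, limma adjusted p = 0.850) rested on the *pho* array of 9–12 cm, without which it was -0.84 (limma adjusted p = 0.786). *HOS58* had 9637 and 8454 in *pho* at 9–12 and 5–8 cm, against 8944 and 9679 in WT. *OSH45* and *HOS66* were thus highest in the *pho* array of 9–12 cm, in which *OSH1*, *OSH6*, *OSH3* and the first probe set of *OSH43* were lowest. The second probe set of *OSH43* was lowest in the *pho* array of 5–8 cm, at 65.0.

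Of further *WOX* genes, 4 could be measured and 1 passed the filter. This was *WOX8*, with 696 in *pho* and 963 in WT at 9–12 cm, and 1083 in *pho* and 937 in WT at 5–8 cm (log2 fold change -0.13, limma adjusted p = 0.941). *WOX6*, *WOX7* and *WOX10* had signals between 5.7 and 53.3 on all 4 arrays, and of these only *WOX7* was higher in *pho* at both lengths. No BELL partner of the KNOX proteins, of 6 looked up by name, was matched.

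*AS2* and *RS2* are the genes of a LOB-domain and a MYB protein, whose relatives repress *KNOX* genes in the leaves of *Arabidopsis* and maize. *AS2* (Os.18459.2.S1_x_at) had signals of 651 in *pho* and 2736 in WT at 9–12 cm, and of 734 in *pho* and 2049.7 in WT at 5–8 cm. Both *pho* arrays were far below both WT arrays, with a log2 fold change of -1.75 ± 0.30 (SE) and a 95% interval from -2.54 to -0.97 (limma, unadjusted p = 0.00229, adjusted p = 0.388). Its probes can also bind other transcripts. *RS2* had 5013 in *pho* and 6571 in WT at 9–12 cm, and 4814 in *pho* and 7091 in WT at 5–8 cm. Its log2 fold change was -0.47 ± 0.22 (SE, limma adjusted p = 0.760), and again the genotypes did not overlap. Over all tested probe sets, 21.1% had both *pho* arrays below both WT arrays, as *AS2* and *RS2* did. Of the 2 probe sets of *RS2*, only the one with the highest mean signal is given. Neither gene passed after adjustment.

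In CLAVATA signalling, which limits the size of meristems, 2 genes were measured. *FON1*, the receptor kinase gene of rice, had 1567 and 1795 in *pho* at 9–12 and 5–8 cm, against 1804 and 2391 in WT (log2 fold change -0.31, limma adjusted p = 0.832). *FOS1*, the gene of a CLE peptide, had 479 and 100.4 in *pho*, against 116 and 49.8 in WT (log2 fold change 1.36 ± 0.85 SE, limma adjusted p = 0.778). *FON1* was lower and *FOS1* higher in *pho* at both lengths. Over all tested probe sets, 32.5% were lower and 28.5% higher at both. The genotypes of *FOS1* overlapped, since *pho* at 5–8 cm was below WT at 9–12 cm, and its highest signal was that of *pho* at 9–12 cm.

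Hormone genes that KNOX proteins act on, or whose products act with them, gave 5 tested genes. Of these, 0 were higher in *pho* at both lengths, 3 were lower at both and 2 had opposite signs. The shares over all tested probe sets were 28.5%, 32.5% and 39.0%. *GA20OX3*, a gene of gibberellin synthesis, had 1199.9 and 654 in *pho* at 9–12 and 5–8 cm, against 599.6 and 724 in WT (log2 fold change 0.42, limma adjusted p = 0.830). *LOG*, which makes active cytokinin in the rice meristem, had 424 and 261 in *pho*, against 428 and 407 in WT (log2 fold change -0.31, limma adjusted p = 0.859). *GA20OX2*, *CYP734A4* and *CYP734A6*, the last 2 being genes of brassinosteroid breakdown, had log2 fold changes between -0.31 and 0.19.

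In the list of crown root initiation, where *WOX11* acts, 4 genes were measured and 3 tested, of which 1 was higher in *pho* at both lengths and 2 had opposite signs. *SHR1*, whose *Arabidopsis* relative patterns the root, had 262 and 695 in *pho* at 9–12 and 5–8 cm, against 486 and 598 in WT (log2 fold change -0.32, limma adjusted p = 0.898). *IAA23*, an auxin response gene needed for the rice root tip, had 518 and 190.2 in *pho*, against 344 and 165 in WT (log2 fold change 0.38, limma adjusted p = 0.900). *SCR1*, which was not tested, had 90.9 and 148 in *pho*, against 43.0 and 79.6 in WT. *RR2*, a cytokinin response gene downstream of WOX11 in rice, had 313 and 307 in *pho*, against 276 and 314 in WT. *IAA23* and *SCR1* were thus higher in *pho* at both lengths, as *WOX11* was, whereas *RR2* was higher at 9–12 cm only and *SHR1* at 5–8 cm only. Over all tested probe sets, 28.5% were higher in *pho* at both lengths. The probes of *IAA23* can also bind other transcripts, and its genotypes overlapped. Of the 3 probe sets of *IAA23*, only the one with the highest mean signal is given, so its direction rests on that one.

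**Figure D4:**
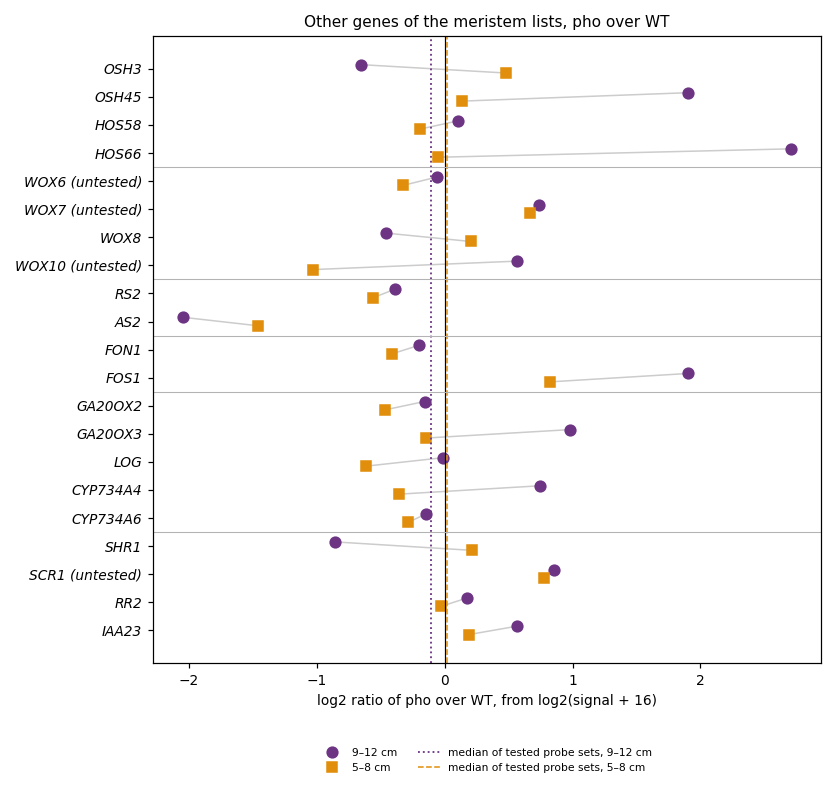
Log2 ratio of *pho* over WT (horizontal axis, from log2(signal + 16)) for the other genes looked up by name, grouped from the top as *KNOX*, *WOX*, *KNOX* repressor, CLAVATA, hormone and crown root genes, with circles for 9–12 cm and squares for 5–8 cm. Each point is 1 array of *pho* over 1 array of WT, and vertical lines are medians of all tested probe sets. *AS2* lies furthest left, at -2.04 and -1.46, and *HOS66* has the highest ratio, 2.71 at 9–12 cm, beside -0.06 at 5–8 cm.

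Marker genes of other tissues differed in signal between the genotypes, without passing the test. Of 9 measured genes of tapetum and anther, 8 were tested and these 8 were lower in *pho* at both lengths. Some of them passed the filter only through WT, such as *EAT1*, with means of 19.8 in *pho* and 943 in WT. The untested gene, *RTS*, had opposite signs, with 3.0 and 7.3 in *pho* at 9–12 and 5–8 cm, against 5.7 and 6.6 in WT. Over all tested probe sets, 32.5% were lower and 28.5% higher in *pho* at both lengths. The 9 genes had summed signals of 2632 and 4527 in *pho* at 9–12 and 5–8 cm, against 55923 and 13938 in WT. These sums were led by different genes. In *pho* the largest part was *MSP1*, with 1127 and 3669, and in WT at 9–12 cm it was *C4*, with 22432. In *pho*, *MSP1*, *GAMYB* and *RTS* were lower at 9–12 than at 5–8 cm, and the other genes of this list were higher. The lowest signal among the 9 genes was 2.9, that of *EAT1* in *pho* at 5–8 cm, and none was listed at 0. All 9 measured MADS-box genes of floral organs were lower in *pho* at both lengths, with sums of 5694 and 3798 in *pho*, against 40335 and 38905 in WT. Some of these too passed the filter only through WT, such as *MADS58*, with means of 66.9 in *pho* and 2196 in WT. Of 8 measured green leaf genes, 7 were higher in *pho* at both lengths and 1 had opposite signs, with sums of 64798 and 35947 in *pho*, against 18325 and 25546 in WT. The leaf sum was thus highest in the *pho* array of 9–12 cm. In this array *OSH1*, *OSH6* and the first probe set of *OSH43* had their lowest signals, whereas the second probe set of *OSH43* was lowest in *pho* at 5–8 cm. The part of these tissues in the values of the *KNOX* and *WOX* genes was not tested.

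Examples from these lists were *C4*, a tapetum gene, with 249 and 55.8 in *pho* at 9–12 and 5–8 cm, against 22432 and 4194 in WT, and *MADS58*, a gene of stamen and carpel identity, with 65.9 and 67.8 in *pho*, against 2256 and 2137 in WT. *MADS7*, another floral MADS-box gene, had 288 and 195 in *pho*, against 8723 and 8548 in WT. *PORA*, a gene of chlorophyll synthesis, had 7393 and 6709 in *pho*, against 866 and 2548 in WT, and its relative *PORB* had 3508 and 2344 in *pho*, against 1013 and 1504 in WT. The adjusted p from limma was 0.351 for *C4*, 0.0773 for *MADS58* and *MADS7*, 0.563 for *PORA* and 0.643 for *PORB*.

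For each tested gene, the most similar named genes were found by the distance between log2(signal + 16) profiles over the 4 arrays, each centred on its mean, among 2098 tested named genes. This is a description over 4 arrays and was not tested. Nearest to *OSH1* were *HK4*, a cytokinin receptor gene, at a distance of 0.0552, *ADPRT-1* at 0.0817 and *OsRFC5*, a subunit gene of the DNA replication clamp loader, at 0.0978. *HK4* had signals of 485 and 1118 in *pho* at 9–12 and 5–8 cm, against 866 and 1143 in WT. Nearest to *OSH6* were *FAS2*, a gene of chromatin assembly, at 0.0643, the kinesin gene *KIN14L* at 0.0990 and *BOP1* at 0.141. *FAS2* had 233 and 575 in *pho*, against 306 and 429.5 in WT.

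Nearest to *OSH43* were *AARE2* at 0.0741, the homeobox gene *Hox21* at 0.0752 and the kinesin gene *KIN7K* at 0.117. *Hox21* had signals of 829 and 1346 in *pho* at 9–12 and 5–8 cm, against 2145 and 1748 in WT, so that it too was lower in *pho* at both lengths. Nearest to *OSH71* were *CLPD2* at 0.0153, *GRXS4*, a glutaredoxin gene, at 0.0478 and *DAPB2* at 0.0797. *CLPD2* had 255 and 221 in *pho*, against 249 and 273 in WT.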

How the data were processed

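Total RNA of *pho* and WT panicles was hybridized to 1-colour Affymetrix GeneChip Rice Genome Arrays, 1 per genotype and panicle length. The deposited values are intensity values on a linear scale, MAS5 signals that the authors computed in GCOS and scaled to the same overall intensity, and versions are not given in the sources used here. Scaling fixes the overall level of an array, so the signal of 1 probe set depends on those of the others. The number of arrays limits the precision, and counting depth does not apply.

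Of 57381 probe sets, 123 controls were left out. A gene table paired 22436 probe sets with 1 gene and 95 with several, which were not named. Genes of the other lists were also represented by their probe set with the highest mean signal. Some of these, such as *LOG*, *WOX6* and *OsMADS15*, had more than 1. Groups came from the sample titles. Identical signals, 106 to 236 of 57258 per pair of arrays, gave no sign of a duplicated array.

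Signals were tested as log2(signal + 16) where the mean was at least 100, using R 4.3.3 and limma 3.58.1 (lmFit, then eBayes with its trend on intensity), with genotype as the only term, two-sided, with Benjamini-Hochberg adjustment and a threshold of 0.05. Panicle length was tested in a fit with genotype and length. The script was tested on simulated data. The replicate numbers stand for panicle length and so pair the arrays by the labels. Deviations of the *pho* and WT arrays of the same length from their genotype means correlated at 0.311 over the tested probe sets. Alternatives were pseudocounts of 1 and 64, no filter or a minimum mean of 200, quantile normalization, centring on array medians, panicle length as a replicate block, no trend, leaving out each array, leaving out those with a suffix for several transcripts, and the mean over a gene's probe sets.

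The genes of the set and all lists were chosen with earlier results of these data known. The 2 *KNOX* repressor genes were added after the annotation had been seen. Named were all genes of the set, the 2 genes of each other list with the smallest p, the 3 nearest genes of each tested gene, and *OsMADS1* and *OsMADS15*. The further genes given, *OSH3*, *HOS58*, *WOX6*, *WOX7*, *WOX10*, *GA20OX2*, *CYP734A4*, *CYP734A6*, *SCR1*, *RR2*, *MSP1*, *GAMYB* and *RTS*, were named after their values had been seen. Of 109 list entries, 49 could be measured, and names not matched were not analysed here. Tables came from pandas 2.3.3 with numpy 2.4.6 in Python 3.11.15, and figures from matplotlib 3.10.9.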

Additional observations from a re-analysis of the deposited data

Results flagged for a closer look

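For 4 genes the log2 ratio of *pho* over WT had opposite signs at the 2 panicle lengths. The log2 ratio of *pho* over WT at 9–12 cm minus that at 5–8 cm was -0.83 for *OSH1*, -0.65 for *OSH6*, 0.33 for *OSH71* and 0.16 for *QHB*. For 3 genes the longer panicles differed from the shorter ones in opposite directions in *pho* and WT. The log2 ratio of 9–12 over 5–8 cm in *pho* minus that in WT was -1.07 for *OSH43*, 0.33 for *OSH71* and -0.65 for *WOX11*. The second probe set of *OSH43*, below the filter, gave 0.70, so that the direction differed between the probe sets of this gene. With 1 array per genotype and length, none of these differences was tested, and opposite signs between the lengths were found for 39.0% of all tested probe sets. The differences of *OSH71* and *QHB* are between small ratios, at most 0.30 in size. *QHB*, which was below the filter, had 92.3 in *pho* and 92.2 in WT at 9–12 cm, so no direction is read there. Leaving out the *pho* array of 9–12 cm, which stood apart from the other arrays, leaves no ratio at that length.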

How the results depend on the processing

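No gene of the set passed the threshold in any fit. Between *pho* and WT, 0 probe sets passed in the main setting, 51 after centring each array on its median (11 higher, 40 lower in *pho*) and 40 with panicle length as a replicate block (8 higher, 32 lower), and 0 in the other settings. Between panicle lengths, 0 passed, against 14 after centring (13 higher, 1 lower at 9–12 cm). Centring moved every log2 fold change by -0.08 between genotypes and by -0.29 between lengths. With the replicate block, the adjusted p from limma was 0.673 for *OSH1* and 0.558 for *OSH43*, and the block changed no call of the set.

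*OSH43* was lower in *pho* in all 13 alternatives (log2 fold change -1.23 to -0.44, limma adjusted p at least 0.174). It has no value without probe sets that can match several transcripts, because its other probe set is below the filter. Leaving out 1 array gave -0.97 to 0.23 for *OSH1*, with 0.23 without *pho* replicate 2 (9–12 cm). For *OSH6* it gave -0.58 to 0.60, with -0.58 without *pho* replicate 1 and -0.26 without WT replicate 2, and *OSH6* was also -0.069 after quantile normalization and -0.075 after centring. For *QHB* it gave -0.29 to 0.13, with 0.13 without *pho* replicate 1 and 0.056 without WT replicate 2. *HOS66* ranged from -0.84 to 3.49 and was -0.84 without *pho* replicate 2. Between lengths, *OSH71* was -0.25 after centring. The log2 difference of *WOX4* was 0.55 with a pseudocount of 1, and that of *WOX11* was 1.58 with a pseudocount of 1 and 0.77 with 64. Of 132 values of single genes under alternatives, the other 120 kept their direction and, where tested, their side of the threshold. *AS2* stayed between -1.96 and -1.55 (limma adjusted p at least 0.0968). The alternatives for the panicle lengths of single genes, *AS2* and *HOS66* were chosen after seeing the data. Where a value turned, the cause was not tested. Leaving out 1 array from the fit of panicle length was not run, because no residual degrees of freedom are left. For an array left alone in its genotype, the spread is that of the other genotype.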
